A study of Rattus norvegicus with 56 samples.

Results

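Amniotic fluid from rat fetuses with a ventricular septal defect (VSD), an opening in the wall between the lower heart chambers, was compared with amniotic fluid from control (NC) fetuses. The comparison took every amniotic fluid sample labelled VSD or NC, which were 14 of the 56 samples of the study, with 7 VSD and 7 NC samples. All were Sprague-Dawley rats, and the fluid was taken on D19 (embryonic day 19), before birth. Dams of VSD fetuses had received dimethadione (DMO) by gavage, at 5 ml/kg of a 60 mg/ml solution every 12 h from D8, 6 times in all, while the dams of NC fetuses were given distilled water. DMO and the defect therefore cannot be told apart in this comparison. Another group, non-VSD, came from DMO dams too, but those fetuses had an intact septum. The VSD fetuses were those without a malformation of the large vessels, and the labels do not say which fetuses shared a dam. The p-values therefore measure the spread between these samples, and littermates, if there are any, are counted as separate samples.

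Late in gestation, amniotic fluid is fed by fetal urine and lung fluid and is in contact with the skin, the airways, the gut and the membranes. MicroRNAs are short RNAs that guide Argonaute proteins to messenger RNAs, mainly through a seed at their 5′ end, and many are made almost entirely by a single kind of cell. Outside cells they are carried in vesicles or bound to proteins, so a fluid holds a mixture of microRNAs from many tissues. The fluid here was the supernatant of a centrifugation, and in such bulk samples fewer cells of a type and less RNA released per cell cannot be told apart. No microRNA defines amniotic fluid, so the sample label could not be checked against a marker.

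Total counts were between 79234 and 248295 in the NC samples (median 141904) and between 81386 and 243598 in the VSD samples (median 155171). A count of 0 allowed a level of up to 12.1 to 37.9 CPM (counts per 1000000; levels elsewhere in the text are also scaled by TMM, which assumes most microRNAs unchanged), and such limits cover counting error only. Between 266 and 388 microRNAs were detected in an NC sample and between 227 and 336 in a VSD sample. The 10 most abundant microRNAs of a sample took 44.0% to 47.7% of its counts in the NC group and 40.9% to 55.6% in the VSD group. Several VSD samples stood apart before any test. The muscle microRNA miR-206-3p took 22.5% of the counts of VSD replicate 4 and 15.7% of those of replicate 1, and miR-16-5p took 15.45% and 15.02% in replicates 6 and 7. VSD replicate 2 had the fewest detected microRNAs, 227, and the lowest median Spearman correlation with its own group, 0.783 across the tested microRNAs. No pair of samples within a group agreed within sampling noise, so all 14 were kept as separate samples.

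The sequences shown are those on which the comparison turned, the DE-microRNAs with a mature sequence in the RefSeq table of build GRCr8 and the pair miR-103-3p and miR-107-3p. They are written 5′ to 3′, and the capitals mark the seed, bases 2 to 8. Of the 493 microRNAs listed in amniotic fluid, 453 matched a mature sequence by name. The 8 that were higher in VSD fluid and have a sequence there are first, followed by the 8 that were lower, and then the pair.
miR-292-5p: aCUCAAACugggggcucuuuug
miR-122-5p: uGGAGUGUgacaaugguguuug
miR-142-3p: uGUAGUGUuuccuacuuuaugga
miR-484: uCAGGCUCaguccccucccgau
miR-144-3p: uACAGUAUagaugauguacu
miR-185-5p: uGGAGAGAaaggcaguuccuga
miR-665: aCCAGGAGgcugaggucccuua
miR-1b: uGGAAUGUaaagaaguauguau
miR-369-3p: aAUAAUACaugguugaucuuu
miR-199a-3p: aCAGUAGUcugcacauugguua
miR-300-3p: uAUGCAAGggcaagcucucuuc
miR-136-3p: cAUCAUCGucucaaaugagucu
miR-376b-3p: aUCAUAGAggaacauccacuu
miR-196c-5p: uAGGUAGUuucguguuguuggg
miR-299a-5p: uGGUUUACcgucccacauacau
miR-215: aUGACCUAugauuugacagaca
miR-103-3p: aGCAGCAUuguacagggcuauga
miR-107-3p: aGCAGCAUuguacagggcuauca
No seed was shared among the 16 DE-microRNAs shown. miR-103-3p and miR-107-3p had the same seed and differed only by G22C (miR-103-3p first, positions from the 5′ end), and miR-1b differed from miR-1-3p only by G17A, so reads of either pair could have been assigned to the other member.

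VSD fluid held more miR-292-5p and more of several microRNAs known from blood, before correction for multiple tests. It held less of the mesenchymal miR-199a-3p and of several microRNAs of the imprinted Dlk1-Dio3 region, also before correction. In that region miR-665 was called higher instead. The liver microRNA miR-122-5p and the muscle microRNA miR-1b were also called, but neither was called without VSD replicate 4. Each of the blood-linked calls was likewise lost when VSD replicate 6 (miR-486) or VSD replicate 7 (the others) alone was left out. The term DE-microRNA follows the usage of the study. It means an at least 2-fold difference in either direction together with p under 0.05 before adjustment. By edgeR's quasi-likelihood test on the counts, 17 of 245 microRNAs tested (6.94%) met that threshold, 9 of them higher (3.67%) and 8 lower (3.27%) in VSD fluid. At an unadjusted p under 0.05 with any fold change, 14 were higher (5.71%) and 19 lower (7.76%). None of the 245 had a Benjamini-Hochberg adjusted p under 0.05, and the lowest adjusted p by edgeR was 0.174. DESeq2 and limma called 0 at that adjusted p as well, and 33 microRNAs had an unadjusted p under 0.05 by edgeR. For 0 of the 245 (0%) did the VSD and the NC samples not overlap. The single microRNAs below are therefore calls before correction.

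**Figure D1:**
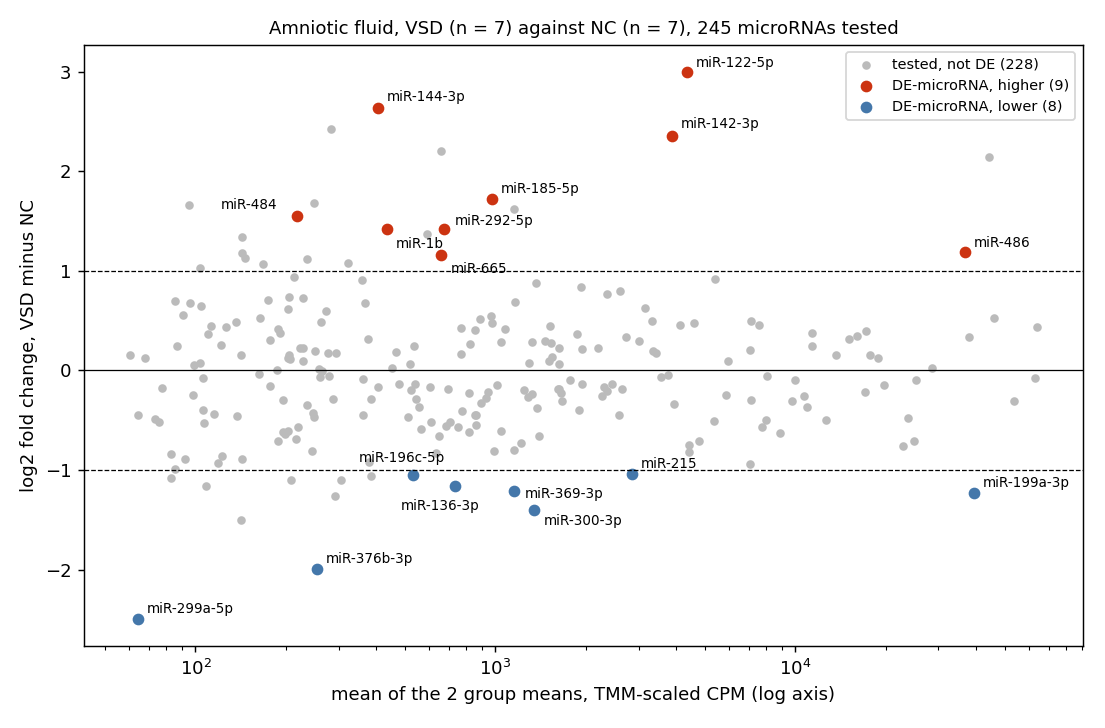
Log2 fold change (VSD minus NC, vertical) against the mean of both group means in TMM-scaled CPM (horizontal, log axis) for the 245 microRNAs tested in amniotic fluid. Red points are the 9 DE-microRNAs higher in VSD fluid, blue points the 8 that were lower, grey points the other 228, and the dashed lines mark a 2-fold change.

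The microRNA with the lowest p was miR-369-3p, of the Dlk1-Dio3 region, a cluster of imprinted microRNAs made from the maternal chromosome and abundant in fetal tissues. Its level was 992 to 2432 CPM in the NC samples (median 1719) and 387 to 1350 CPM in the VSD samples (median 628). All 7 VSD samples were below the NC median and 6 of them were below every NC sample. The log2 fold change was −1.21 ± 0.32 (SE), with an unadjusted p of 0.00130 and an adjusted p of 0.174 by edgeR. An exact two-sided permutation test of the mean log2 CPM gave p = 0.00291, and 0.122 after adjustment over the 245 microRNAs. The other arm of the same hairpin, miR-369-5p, had a log2 fold change of −0.24 ± 0.37 (SE) at 1221 CPM in VSD and 1437 CPM in NC fluid. Without VSD replicate 4, the adjusted p of miR-369-3p by edgeR was 0.0406, over the 252 microRNAs tested in that fit. No other adjusted p was under 0.05 in that or any other setting tried for this comparison.

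miR-199a-3p, which mesenchymal cells and fibroblasts make in abundance, was among the 10 most abundant microRNAs of the fluid. NC samples held 17826 to 81100 CPM (median 63543) and VSD samples 11082 to 35327 CPM (median 21968). All 7 VSD samples were below the NC median, and 5 of the 7 NC samples were above every VSD sample. The log2 fold change was −1.23 ± 0.36 (SE), with an unadjusted p of 0.00294 by edgeR and an exact permutation p of 0.0128. The other arm, miR-199a-5p, was far less abundant, at 171 CPM in VSD and 410 CPM in NC fluid, and its log2 fold change was −1.26 ± 0.77 (SE) with an unadjusted p of 0.121 by edgeR.

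Among the other microRNAs of the Dlk1-Dio3 region, miR-300-3p was at 418 to 4223 CPM in NC fluid (median 1869) and 312 to 1362 CPM in VSD fluid (median 660). Its log2 fold change was −1.41 ± 0.48 (SE). miR-376b-3p was at 11.6 to 848 CPM in NC fluid (median 310) and 0 to 202 CPM in VSD fluid (median 123), a log2 fold change of −1.99 ± 0.80 (SE). All 7 VSD samples were below the NC median for both, and 4 NC samples lay above every VSD sample. miR-299a-5p had a count in every NC sample, from 46.1 to 174 CPM (median 82.7), and 0 counts in 5 of the 7 VSD samples. The remaining VSD samples had 2 counts and 20 counts, the latter in replicate 1 at 109 CPM. The fitted log2 fold change of −2.50 ± 1.03 (SE) rested on 22 counts in all VSD samples and 115 in all NC samples, with an exact permutation p of 0.00291. miR-299a-5p passed the filter on low counts mainly through the NC samples. It was not tested without NC replicate 3 or 5 or VSD replicate 1, so its p and its call are no support on their own. miR-136-3p lies in the same region, in a neighbouring run of hairpins, and was at 325 to 1692 CPM in NC fluid (median 739) and 172 to 778 CPM in VSD fluid (median 430). Its log2 fold change was −1.16 ± 0.41 (SE), and the groups overlapped, with 6 of the 7 VSD samples below the NC median.

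The 2 other DE-microRNAs that were lower were miR-196c-5p, encoded in a Hox gene cluster, and miR-215, known from the gut and the kidney. miR-196c-5p was at 244 to 1322 CPM in NC fluid (median 813) and 149 to 438 CPM in VSD fluid (median 376), a log2 fold change of −1.05 ± 0.42 (SE). miR-215 was at 1386 to 7077 CPM in NC fluid (median 2949) and 448 to 4181 CPM in VSD fluid (median 1670), a log2 fold change of −1.04 ± 0.47 (SE). Both stood close to the 2-fold limit, and 12 of the 23 alternatives that kept the study's threshold called each of them.

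The microRNA with the lowest p among those that were higher was miR-292-5p, of the miR-290-295 cluster, which is known from embryonic stem cells, germ cells and the placenta. It was at 232 to 671 CPM in NC fluid (median 327) and 527 to 2407 CPM in VSD fluid (median 889). Every VSD sample exceeded the NC median, 4 were above every NC sample, and 6 NC samples were below every VSD sample. The log2 fold change was 1.42 ± 0.39 (SE), with an unadjusted p of 0.00177 by edgeR and an exact permutation p of 0.00291. The highest value was that of VSD replicate 2, and leaving it out gave a log2 fold change of 1.03. Of the cluster's 8 listed microRNAs, only miR-292-5p and miR-293-5p were abundant enough to be tested, and miR-293-5p was at 241 CPM in VSD and 204 CPM in NC fluid, with a log2 fold change of 0.22 ± 0.72 (SE).

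The microRNAs known from blood were high in the same 2 VSD samples. miR-486, of red blood cells, was at 14434 to 33920 CPM in NC fluid (median 20237) and 17736 to 134169 CPM in VSD fluid (median 38602), a log2 fold change of 1.19 ± 0.41 (SE). miR-144-3p, of the erythroid miR-144/451 cluster, was at 0 to 369 CPM in NC fluid (median 95.1) and 12.1 to 2209 CPM in VSD fluid (median 222), a log2 fold change of 2.64 ± 0.99 (SE). miR-142-3p, made by blood cells of all lineages and above all by white blood cells, was at 146 to 4359 CPM in NC fluid (median 679) and 629 to 24962 CPM in VSD fluid (median 1884), a log2 fold change of 2.36 ± 0.85 (SE). VSD replicates 6 and 7 held the top values of all 3, and 4 VSD samples were above every NC sample for miR-486, 3 for miR-144-3p and 2 for miR-142-3p.

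miR-185-5p and miR-484, broadly expressed microRNAs that are also abundant in red blood cells, followed the same samples. miR-185-5p was at 151 to 869 CPM in NC fluid (median 389) and 299 to 4992 CPM in VSD fluid (median 556), and its log2 fold change was 1.73 ± 0.65 (SE). miR-484 was at 71.5 to 174 CPM in NC fluid (median 108) and 65.2 to 897 CPM in VSD fluid (median 206), and its log2 fold change was 1.55 ± 0.58 (SE). Leaving out a single sample was enough to lose each call. miR-486 was not called without VSD replicate 6, and miR-142-3p, miR-144-3p, miR-185-5p and miR-484 were not called without VSD replicate 7. Without VSD replicates 6 and 7 together, none of these 5 was a DE-microRNA. The log2 fold changes were then 0.40 for miR-486, 0.36 for miR-142-3p, 0.69 for miR-144-3p, 0.05 for miR-185-5p and 0.55 for miR-484, with unadjusted p by edgeR between 0.164 and 0.923. In the same fit 18 DE-microRNAs were called, of which 9 were among the 17.

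miR-122-5p, the main microRNA of hepatocytes, had the largest log2 fold change among those higher, 3.0 ± 0.92 (SE). It was at 357 to 1577 CPM in the NC samples (median 935), and 5 VSD samples lay inside that range. VSD replicate 3 was at 8358 CPM and VSD replicate 4 at 42063 CPM, with 1795 and 8161 counts. The medians of the groups were 895 CPM in VSD and 935 CPM in NC fluid, in the opposite order to the fold change, and the exact permutation p was 0.334. With VSD replicate 4 left out, it fell to a log2 fold change of 1.07 and an unadjusted p by edgeR of 0.0918.

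miR-1b, a form of the heart and skeletal muscle microRNA miR-1, was at 102 to 362 CPM in NC fluid (median 273) and 84.7 to 2386 CPM in VSD fluid (median 300). Its log2 fold change was 1.43 ± 0.61 (SE). Without VSD replicate 4, which had the highest value, it was 0.53 with an unadjusted p of 0.322 by edgeR. miR-1b was also not called when NC replicate 1, 6 or 7 was left out. Of the 23 alternatives that kept the study's threshold, 14 called it. miR-665, also of the Dlk1-Dio3 region, was at 221 to 560 CPM in NC fluid (median 447) and 122 to 2250 CPM in VSD fluid (median 590), a log2 fold change of 1.16 ± 0.48 (SE). It was not called when VSD replicate 2 or 4 or NC replicate 1 or 2 was left out, at log2 fold changes of 0.76, 1.03, 1.06 and 1.04.

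**Figure D2:**
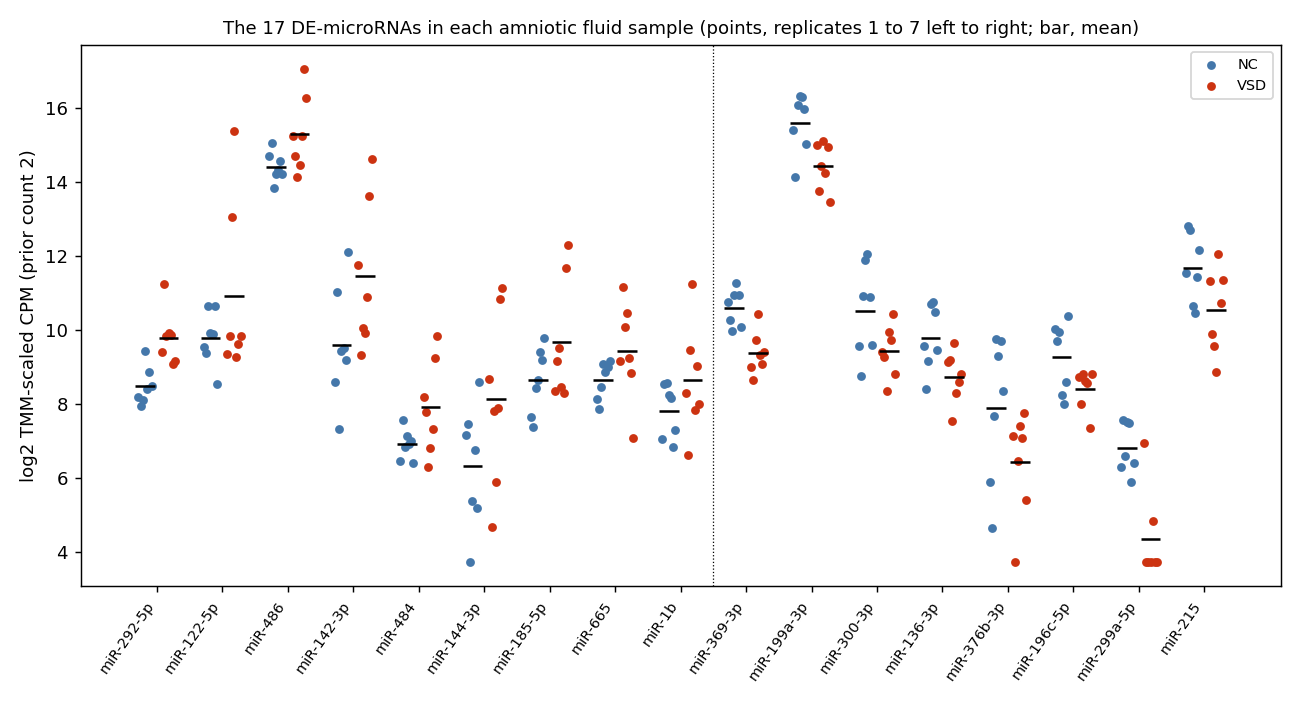
Log2 TMM-scaled CPM (prior count 2) of the 17 DE-microRNAs in each of the 7 NC (blue) and 7 VSD (red) samples, with replicates 1 to 7 from left to right and a bar at each mean. miR-292-5p and miR-369-3p shifted across most samples, whereas miR-122-5p was high in VSD replicates 3 and 4 only and miR-142-3p and miR-144-3p were highest in VSD replicates 6 and 7.

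Several microRNAs with small spread were among the lowest p-values without reaching a 2-fold change. miR-103-3p and miR-107-3p, broadly expressed microRNAs encoded in introns of the pantothenate kinase genes, were both higher. miR-103-3p was at 2573 to 4931 CPM in NC fluid (median 3818) and 4548 to 14834 CPM in VSD fluid (median 5457), a log2 fold change of 0.92 ± 0.28 (SE). Its exact permutation p of 0.00117 was the lowest of the 245, and 0.122 after adjustment. miR-107-3p was at 909 to 2035 CPM in NC fluid (median 1248) and 1633 to 3701 CPM in VSD fluid (median 2259), a log2 fold change of 0.84 ± 0.26 (SE). For each of them 6 of the 7 VSD samples were above every NC sample. miR-370-3p, from the Dlk1-Dio3 region, had a log2 fold change of 0.87 ± 0.30 (SE), and every VSD sample exceeded the NC median. miR-27b-3p was lower, at 4183 to 8489 CPM in NC fluid (median 6072) and 2610 to 6120 CPM in VSD fluid (median 3113), a log2 fold change of −0.71 ± 0.24 (SE), with 6 of 7 VSD samples below every NC sample.

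The most abundant microRNAs of the fluid mostly did not pass. Besides miR-199a-3p and miR-486, they were miR-16-5p, miR-3473, miR-203a-3p, miR-483-5p, miR-206-3p, miR-205, let-7i-5p and let-7a-5p, with log2 fold changes between −0.31 for miR-203a-3p and 2.15 for miR-206-3p. miR-203a-3p and miR-205, of stratified epithelia such as skin, were at 59293 ± 7901 and 33360 ± 9833 CPM in NC fluid (mean ± SD, n = 7) and at 47959 ± 18992 and 42225 ± 15234 CPM in VSD fluid. miR-16-5p was at 54349 ± 10508 CPM in NC fluid and 73688 ± 65732 CPM in VSD fluid. The spread of the VSD samples was the larger for all 3. miR-206-3p, of skeletal muscle, ranged from 263 to 57507 CPM in NC fluid and from 375 to 282314 CPM in VSD fluid, and its log2 fold change of 2.15 ± 1.28 (SE) had an unadjusted p of 0.111 by edgeR.

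To read the changes by what a microRNA could pair with, counts were summed over the microRNAs that share a seed, and the sums were tested in the same way. The 453 microRNAs with a sequence carried 83.7% to 95.2% of the counts of a sample and gave 371 seeds, of which 183 were tested and 43 of those had at least 2 members. There were 16 DE seeds (8.74%), 11 higher and 5 lower, and 0 with an adjusted p under 0.05 by edgeR, where 24 had an unadjusted p under 0.05 and the lowest adjusted p was 0.155. DESeq2 and limma gave 0 at that adjusted p too. Of the DE seeds, 14 belonged to a single listed microRNA, and 10 of these were those of miR-369-3p, miR-199a-3p, miR-300-3p, miR-136-3p and miR-376b-3p, which were lower, and of miR-122-5p, miR-142-3p, miR-185-5p, miR-484 and miR-144-3p, which were higher. The other single ones were those of miR-665, miR-1224, miR-451-5p and miR-1306-5p, all higher. The 2 DE seeds with several members were those of miR-292-5p with miR-293-5p and of miR-101a-3p with miR-101b-3p. The seeds of miR-1b, miR-196c-5p, miR-215 and miR-299a-5p, summed with their other members, were not DE. Their log2 fold changes were 2.17 ± 1.23, 0.08 ± 0.39, −0.47 ± 0.38 and −1.41 ± 0.89 (SE). The sequences of the members that had not been called on their own, or that share a DE seed, are given here, with the seed in capitals.
miR-293-5p: aCUCAAACugugugacacuuu
miR-101a-3p: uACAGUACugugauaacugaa
miR-101b-3p: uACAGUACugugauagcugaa
miR-1224: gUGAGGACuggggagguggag
miR-451-5p: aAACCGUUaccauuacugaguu
miR-1306-5p: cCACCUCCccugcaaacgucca
The summed counts of the miR-292-5p and miR-293-5p seed were 1196 in VSD and 649 in NC fluid, with a log2 fold change of 1.14 ± 0.36 (SE). miR-101a-3p and miR-101b-3p had log2 fold changes of 1.07 ± 0.57 and 1.18 ± 0.77 (SE) alone and 1.15 ± 0.50 (SE) together, from 372 counts in VSD and 195 in NC fluid. miR-1224, a mirtron (cut from its host gene by splicing), failed the filter on low counts in the test of single microRNAs and passed it among the seeds. It had counts in all 7 VSD samples, at 54.6 to 278 CPM (median 124), and 0 counts in 4 of the 7 NC samples. Its log2 fold change was 2.78 ± 0.96 (SE), from 135 counts in VSD and 22 in NC fluid. The seed of miR-1224 passed the filter mainly through the VSD samples, so its p and its call are no support on their own. The seed of miR-103-3p and miR-107-3p had the second lowest p among the seeds, with a log2 fold change of 0.98 ± 0.28 (SE), under the 2-fold limit. The seed of miR-27a-3p and miR-27b-3p had a log2 fold change of −0.66 ± 0.23 (SE).

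The microRNAs were then read by 20 lists of cell types, clusters and families, beside a median log2 fold change of −0.06 over all 245 tested, of which 118 were above 0 and 127 below. Among the cell types, all 4 tested red blood cell microRNAs were above 0 (median 2.02), with miR-486 and miR-144-3p as DE-microRNAs. miR-451-5p and miR-144-5p had log2 fold changes of 1.62 ± 0.79 and 2.43 ± 1.26 (SE) and did not pass. Of 3 white blood cell microRNAs (median 0.52), miR-142-3p was higher, while miR-150-5p and miR-223-3p, of lymphocytes and of granulocytes, had log2 fold changes of 0.52 ± 0.81 and −0.32 ± 0.53 (SE). All 4 muscle microRNAs were above 0 (median 1.79), 1 of them, miR-1b, a DE-microRNA. miR-208b-3p, known from heart and slow skeletal muscle, was at 0.13 ± 0.98 (SE), and miR-208a-3p, known from the heart, at 23 counts in all VSD and 25 in all NC samples, was too low to test. The liver list held miR-122-5p only. Without VSD replicates 6 and 7, the red blood cell median was 0.17 with 2 of 4 above 0, and the white blood cell median −0.88. Without VSD replicate 4, the muscle median was 0.43.

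The 5 mesenchymal microRNAs were all below 0 (median −0.46), and miR-199a-3p was the DE-microRNA among them. The smooth muscle and fibroblast microRNAs miR-143-3p and miR-145-5p had log2 fold changes of −0.15 ± 0.44 and −0.19 ± 0.53 (SE). All 3 gut and kidney microRNAs were below 0 (median −0.61), with miR-215 called, and so were all 4 ciliated cell microRNAs (median −0.79), with none at p under 0.05. miR-449a-5p was the most abundant of the ciliated cell list, with a log2 fold change of −0.28 ± 0.39 (SE). Of 12 epithelial microRNAs (median −0.17), 8 were below 0 and 4 above, and miR-429, of the miR-200 family, was the only one with a p under 0.05, at −0.50 ± 0.21 (SE). The 2 endothelial microRNAs, the arms of miR-126a, had opposite signs (median −0.17), with miR-126a-3p, the more abundant, at 0.55 ± 0.59 (SE). Of 4 neural microRNAs (median 0.49) none had a p under 0.05, and miR-7a-5p, the most abundant, was at 0.91 ± 0.44 (SE).

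Of the clusters, the miR-379-410 part of the Dlk1-Dio3 region had 29 tested members, 22 of them below 0 and 7 above (median −0.31). In it 6 had a p under 0.05, all lower, and 4 were DE-microRNAs. Over all 245 tested, 7.76% were lower at that p and 3.27% were DE-microRNAs that were lower. Both counts include miR-299a-5p, whose p and call are no support on their own, as given above. miR-382-5p, the most abundant of these, was at 28820 CPM in NC and 17043 CPM in VSD fluid, with a log2 fold change of −0.76 ± 0.29 (SE), and miR-154-5p was at −0.83 ± 0.38 (SE). Not all members moved alike: the abundant miR-541-5p and miR-379-5p had log2 fold changes of 0.13 ± 0.33 and −0.05 ± 0.33 (SE). In the RefSeq annotation of GRCr8, the hairpins of miR-369, miR-300 and miR-299a lie in a single run of 38 hairpins in which neighbours are no more than 10000 bases apart. The part upstream of it had 16 tested members, 9 below 0 and 7 above (median −0.14). There miR-136-3p and miR-434-3p were lower at p under 0.05 and miR-370-3p and miR-665 higher. miR-434-3p had a log2 fold change of −0.71 ± 0.29 (SE). The miR-290-295 list had a median of 0.82 over 2 members, given above. All 12 tested members of miR-17-92 and its paralogs, a cluster known for cell proliferation, were above 0 (median 0.31), and none had a p under 0.05. The count above 0 was 9 of 12 under library size scaling, 10 under limma and under the replicate block, and 8, with a median of 0.14, without VSD replicate 7. The most abundant, miR-25-3p, was at 0.15 ± 0.20 (SE).

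Of the families, 10 let-7 microRNAs (median −0.27) had no member at p under 0.05, with the most abundant, let-7i-5p, at 0.03 ± 0.30 (SE). Of 6 microRNAs from the miR-15/16, miR-322 and miR-503 hairpins (median −0.29), miR-503-3p and miR-322-5p were lower, at −0.73 ± 0.26 and −0.80 ± 0.32 (SE). Of 8 miR-30 microRNAs (median −0.28), miR-30d-5p was lower, at −0.82 ± 0.34 (SE). Of 5 microRNAs of the Hox clusters (median 0.13), miR-196c-5p and miR-10a-5p were lower, the latter at −0.63 ± 0.23 (SE). The 2 tested microRNAs made without Drosha, the enzyme that cuts most hairpins, were both higher at p under 0.05 (median 1.03), miR-484 as above and miR-320-3p at 0.50 ± 0.21 (SE). A list of 13 microRNAs was taken from the main text of the study, which holds part of its own amniotic fluid calls. Among them, miR-185-5p and miR-142-3p are named there for myocardium, and their amniotic fluid calls are in the study's supplement. Of these, 11 were tested and 9 were above 0 (median 1.68). The study chose them on these samples, so the 5 DE-microRNAs higher and 1 lower among them are not independent evidence, and the same holds for any other microRNA it had called. Not called here were miR-15b-5p, miR-184, miR-1-3p, miR-206-3p and miR-199a-5p, at log2 fold changes of 1.37 ± 0.74, 1.68 ± 0.93, 2.20 ± 1.23, 2.15 ± 1.28 and −1.26 ± 0.77 (SE). With single samples left out, miR-1-3p ranged from 0.33 without VSD replicate 4 to 3.54 without NC replicate 5, where it was called, and miR-206-3p from 1.19 to 2.94, called without NC replicate 5 as well. The others were called without NC replicate 3 or VSD replicate 2 for miR-15b-5p, NC replicate 6 for miR-184 and NC replicate 2 for miR-199a-5p. Too low to test were miR-134-3p and miR-1843b-5p. miR-134-3p had 26 counts in VSD fluid, all of them in VSD replicate 4, and 0 in NC fluid. miR-1843b-5p had 0 counts in VSD fluid and 39 in NC fluid. Under the library size and DESeq2 scalings the 20 medians kept their sign, but limma turned the white blood cell median to −0.08 and the neural median to −1.01, the replicate block turned the neural median to −0.30, and a minimum of 10 counts in every sample turned the endothelial median to 0.69 and the Hox median to −0.50.

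**Figure D3:**
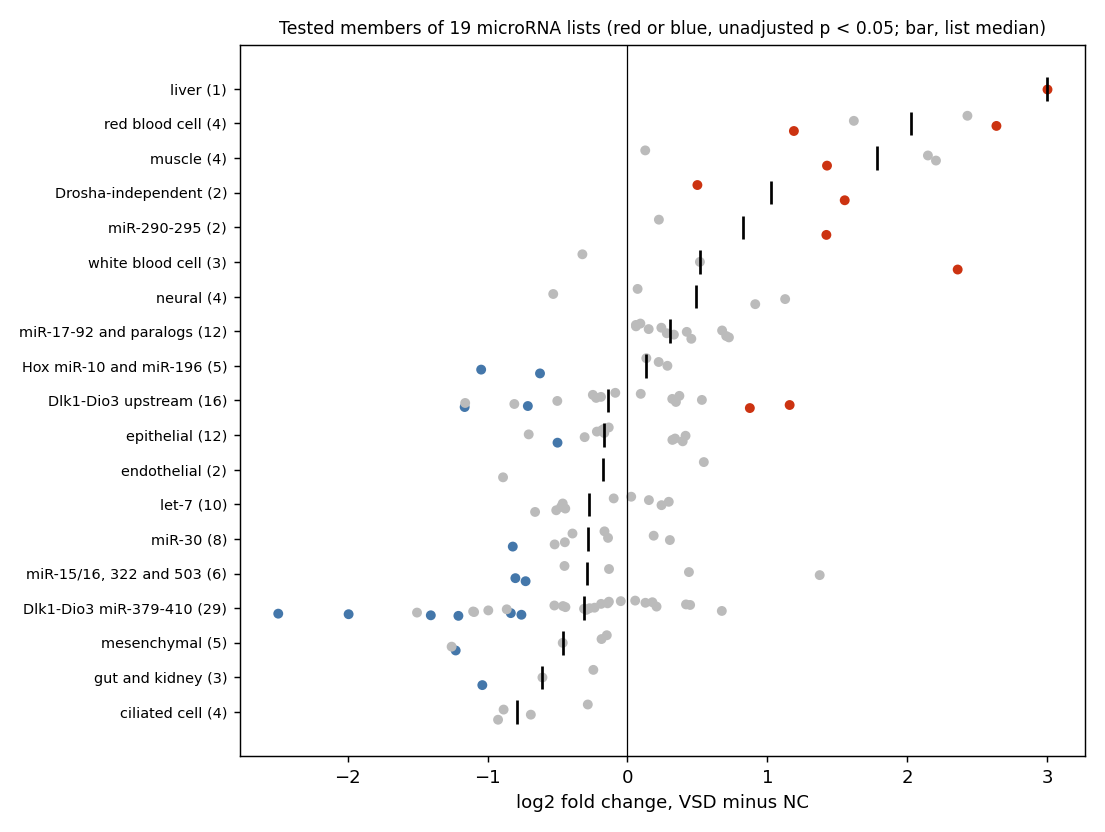
Log2 fold change (VSD minus NC, horizontal) of each tested member of 19 lists, with the number tested in brackets, a black bar at the median, and red or blue points for an unadjusted p under 0.05 by edgeR. The red blood cell, muscle and liver medians lie above 1, and the 6 coloured points of the miR-379-410 cluster are all below 0.

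The lists with the largest medians took very unequal shares of the samples. The red blood cell microRNAs took 1.53% to 3.62% of the counts of an NC sample and 1.82% to 4.50% of those of VSD replicates 1 to 5, but 13.0% and 8.08% in VSD replicates 6 and 7. The white blood cell microRNAs took 0.0543% to 0.700% in the NC samples and were at 1.49% and 2.83% in VSD replicates 6 and 7, the only VSD samples above that range. Muscle microRNAs took 0.0469% to 5.79% in the NC samples, 15.8% in VSD replicate 1 and 23.2% in VSD replicate 4, and VSD replicates 2, 5 and 7 were under 0.2%. The liver microRNA miR-122-5p took 0.930% and 3.35% in VSD replicates 3 and 4 and at most 0.166% in any NC sample. VSD replicates 6 and 7, the highest for blood, were within the NC range for muscle and liver, while VSD replicate 1 was above every NC sample for both the red blood cell list, at 3.92%, and muscle. In contrast, the mesenchymal list took 2.97% to 13.9% in NC and 1.78% to 6.56% in VSD fluid, and the miR-379-410 cluster 5.56% to 11.2% and 3.47% to 9.21%, with no VSD sample above the NC range in either.

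**Figure D4:**
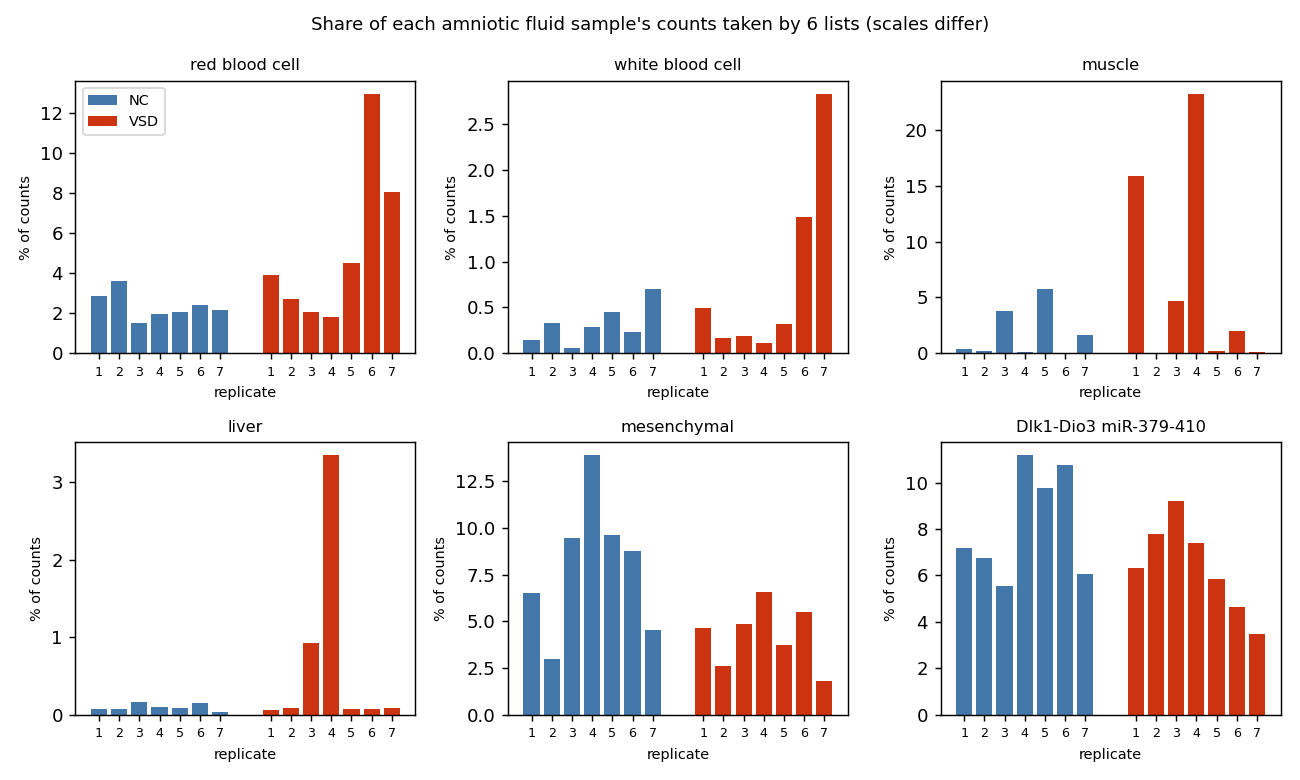
Percent of the counts of each sample taken by 6 lists, for NC (blue) and VSD (red) replicates 1 to 7, with a scale of its own in each panel. The red and white blood cell bars are highest in VSD replicates 6 and 7, the muscle bars in VSD replicates 1 and 4, and the liver bars in VSD replicates 3 and 4.

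As a measure of red blood cell RNA within a library, the ratio of the erythroid miR-451-5p to miR-23a-3p, which is used to judge haemolysis in serum, was computed from the counts. The mean log2 ratio was −4.56 ± 1.62 (SD, n = 7) in NC and −2.94 ± 2.0 (SD, n = 7) in VSD fluid, a difference of 1.63 with an exact permutation p of 0.130. In 2 of the 7 VSD samples it was above every NC sample. Both miR-23a-3p, at a log2 fold change of −0.57 ± 0.27 (SE), and miR-103-3p, at 0.92 ± 0.28 (SE), had a p under 0.05 in the comparison themselves, so these ratios also carry the difference in what they are divided by. With miR-103-3p below the line the difference was 0.23 and with miR-191a-5p 1.17, with exact permutation p of 0.793 and 0.193. The part of blood in the blood-linked differences was not tested beyond these values and the fits without VSD replicates 6 and 7.

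Where both arms of a hairpin were tested, in 41 hairpins, 28 had the same sign of the fold change in both. In 8 of them an arm had an unadjusted p under 0.05, and in 0 did both. For miR-136 the called 3p arm was at −1.16 and the 5p arm at −0.09, and for miR-299a the called 5p arm was at −2.50 and the 3p arm at 0.45 ± 0.85 (SE). The arms of miR-144 and miR-199a were close to each other, at 2.64 and 2.43 and at −1.23 and −1.26.

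The non-VSD fluid shows which of these differences were also present in DMO fetuses without the defect. On the scale of all 3 groups, the non-VSD median was 883 CPM for miR-292-5p, 28729 CPM for miR-199a-3p, 55848 CPM for miR-486 and 5773 CPM for miR-142-3p, on the VSD side of the NC median for each. Against the same NC samples, all 9 DE-microRNAs that were higher in VSD fluid were also above 0 in non-VSD fluid, and 7 of the 8 that were lower were below 0 there too. Both comparisons share the NC samples, so this count is no independent check. The exception was miR-369-3p, whose log2 difference from NC was 0.40 ± 0.38 (SE). It was at 834 to 4879 CPM in non-VSD fluid, and by the median, 1458 CPM against 1759 CPM in NC fluid on this scale, it was lower there, in the opposite order to the fold change. In a fit of all 21 amniotic fluid samples, 29 of 273 microRNAs (10.6%) had an unadjusted p under 0.05 between VSD and non-VSD fluid, 9 were DE-microRNAs, and 0 had an adjusted p under 0.05 by edgeR. Of the 17 DE-microRNAs, only miR-369-3p and miR-122-5p had an unadjusted p under 0.05 between VSD and non-VSD fluid. miR-369-3p was lower in VSD than in non-VSD fluid by a log2 fold change of −1.54 ± 0.38 (SE), with an unadjusted p of 0.000390 and an adjusted p of 0.0572 by edgeR, the lowest of the 273. miR-122-5p was higher by 2.31 ± 0.84 (SE), adjusted p = 0.206 by edgeR, with the same VSD replicates 3 and 4 above the non-VSD range. For miR-292-5p the difference was −0.07 ± 0.37, for miR-486 0.05 ± 0.40 and for miR-199a-3p −0.24 ± 0.36 (SE).

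**Figure D5:**
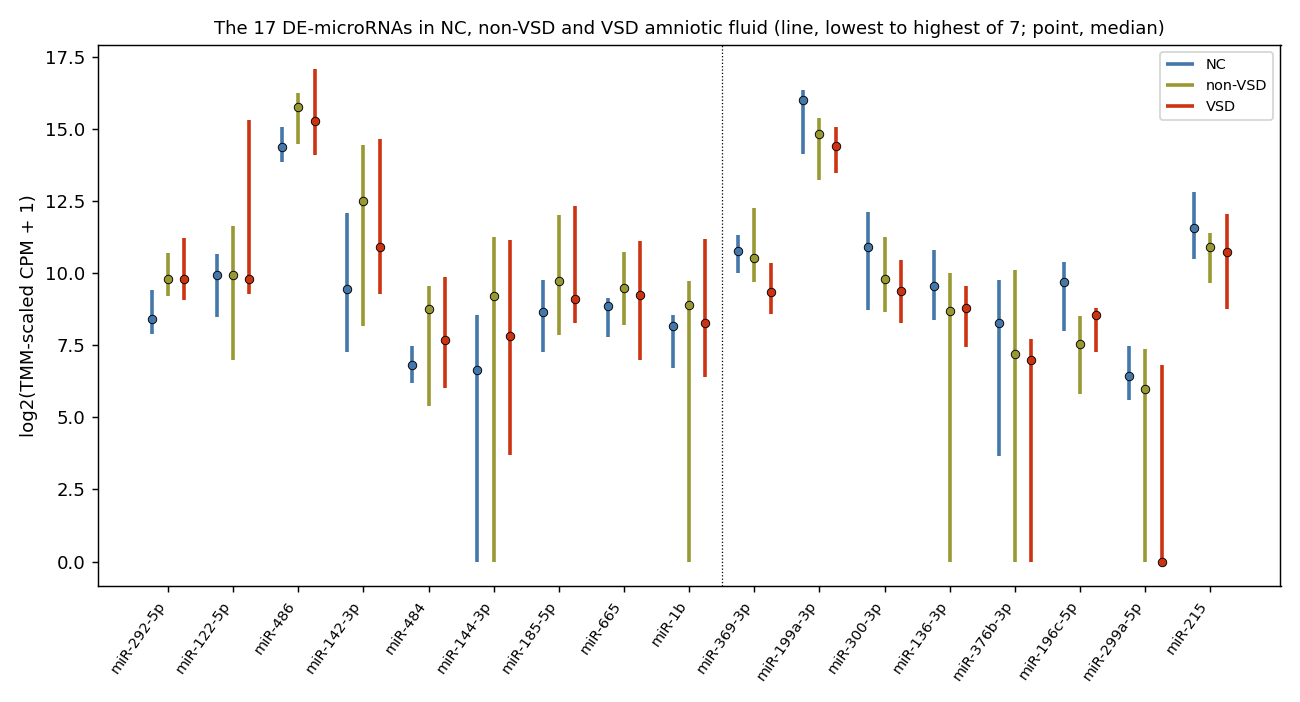
Lowest to highest value (line) and median (point) of the 17 DE-microRNAs in 7 NC, 7 non-VSD and 7 VSD amniotic fluid samples, on log2(TMM-scaled CPM + 1). For miR-369-3p the non-VSD median, 1458 CPM, lies within the NC range and below the NC median, and for miR-292-5p it lies at 883 CPM, beside the VSD samples.

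The 17 DE-microRNAs were also looked up in the myocardium and maternal serum of the study, whose libraries were made with another kit and sequenced on another instrument, so only the fold changes against the NC group of each sample type are set side by side. In myocardium, of the 9 that were higher in VSD fluid 2 were above 0, 6 below and 1 was not tested. Those with an unadjusted p under 0.05 there were all lower, miR-486 at −2.36 ± 0.64, miR-144-3p at −2.62 ± 0.58, miR-142-3p at −1.81 ± 0.58, miR-185-5p at −1.54 ± 0.35, miR-1b at −1.03 ± 0.48 and miR-484 at −0.82 ± 0.35 (log2 fold change ± SE). None of these had an adjusted p under 0.05 by edgeR, and the lowest was 0.0569. The shares of all tested myocardium or serum microRNAs at an unadjusted p under 0.05, or below 0, are not given here. The counts for both sample types therefore have no background to be read against. For miR-1b, leaving out any of 7 of the 14 samples (NC replicates 3, 5 and 7 and VSD replicates 1, 3, 4 and 5) took the unadjusted p to 0.05 or above, and for miR-484 any of 4 did (NC replicate 1 and VSD replicates 1, 2 and 5). Under library size scaling they were at −0.57 and −0.35, with unadjusted p by edgeR of 0.165 and 0.321. The heart tissue had been embedded in paraffin. The hearts of the VSD fetuses held less of the same blood-linked microRNAs of which VSD fluid, mainly replicates 6 and 7, held more. The labels do not tie a heart to a fluid sample. The study also lists miR-486 and miR-144-3p as lower in non-VSD than in NC myocardium, so for both this was not particular to hearts with the defect. Of the 8 that were lower in VSD fluid, 4 were above 0 in myocardium, 2 below and 2 were not tested, and none had a p under 0.05.

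In maternal serum, miR-292-5p was higher in the VSD group as well, with a log2 fold change of 2.07 ± 0.53 (SE) from 388 counts in VSD and 162 in NC serum, an unadjusted p of 0.00101 and an adjusted p of 0.110 by edgeR. It was the only DE-microRNA with an unadjusted p under 0.05 and the same direction in fluid and serum. miR-486 was lower in serum, at −0.58 ± 0.27 (SE), and miR-300-3p higher, at 0.75 ± 0.34 (SE), both opposite to the fluid. Their unadjusted p was 0.05 or above with 7 and 9 of the 14 samples left out singly, reaching 0.163 and 0.142 by edgeR. Of the 17, 7 were not tested in serum.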

How the data were processed

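The authors deposited a count of reads for each mature rat microRNA and sample. Per the labels and methods, amniotic fluid libraries were made with the QIAseq miRNA kit and sequenced on a NovaSeq instrument, and reads were converted with bcl2fastq 2.19. The aligner, the annotation, the build and whether molecular identifiers were counted are not given in the sources used here. The deposited counts were used as they stand, the 56 per-sample columns of CPM and normalized counts were not used, and neither were the authors' group means or their own comparisons (log2 values, fold changes and p-values).

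Samples were grouped by their labels. Counts were kept by filterByExpr (minimum count 10, minimum total 15), scaled by TMM, and the quasi-likelihood test of edgeR 4.0.16 (R 4.3.3) was run on 7 VSD and 7 NC samples, with Benjamini-Hochberg adjustment over all 245 microRNAs. SE is the log2 fold change divided by the root of the F statistic. Levels are TMM-scaled CPM, log2 levels add a prior count of 2, and exact two-sided permutation tests used all 3432 groupings. As alternatives, library size scaling, limma 3.58.1 on log2(CPM + 1), DESeq2 1.42.0, other filters, a p under 0.01, all 3 groups in a single fit, the replicate number as a block, and samples left out were tried. The procedure was run on simulated counts with the same dispersion for every microRNA and no outlying samples. That run therefore cannot speak to calls that rest on single samples. matplotlib 3.10.9 under Python 3.11.15 drew the figures.

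The text names every DE-microRNA and DE seed, the 10 lowest p-values and the 10 highest levels. It also names the 13 microRNAs taken from the study's main text, which are not its full list of amniotic fluid calls. From each other list it names the members at p under 0.05 or the most abundant, with others chosen after their values were seen. The members and lists were chosen with earlier results of these data known. Same-numbered VSD and NC samples are not paired by the labels.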

Additional observations from a re-analysis of the deposited data

Results flagged for a closer look

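For the 17 DE-microRNAs and the 5 other tested microRNAs of the list taken from the study's main text, 44 groups of 7 samples were checked for a sample far from the rest by Dixon's criterion, and 4 were marked, where chance marks about 1 in 20. miR-292-5p was highest in VSD replicate 2, at a log2 CPM of 11.2, with the next VSD sample at 9.91. miR-299a-5p was highest in VSD replicate 1, at 6.94, and the other VSD samples were at 4.84 or below. miR-15b-5p was lowest in VSD replicate 2, at 3.74, where it had 0 counts, with the next sample at 8.29. miR-199a-5p was lowest in VSD replicate 7, at 3.74, also from 0 counts, with the next at 7.09.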

How the results depend on the processing

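With the study's threshold, DE-microRNAs numbered 17 (9 higher, 8 lower). limma called 10 (4 higher), DESeq2 16 higher, no filter beyond 1 count 84 (35 higher, 49 lower), at least 10 counts in every sample 11 (3 lower), and a p under 0.01 left 6 (3 higher, 3 lower). With single samples left out there were 14 to 22, with 5 to 13 higher (5 without VSD replicate 7) and 6 to 10 lower, and without VSD replicates 2 and 4, chosen after seeing the data as was leaving out replicates 6 and 7, 15 were higher. Adjusted calls were 0 to 1 with a sample left out, for single microRNAs and for seeds, the 1 being miR-369-3p and its seed without VSD replicate 4. The 16 DE seeds became 10 with limma, 60 with no filter and 10 to 19 with a sample left out. Between VSD and non-VSD fluid, the 9 DE-microRNAs became 88 with no filter and 7 to 16 with a sample left out, and the 0 adjusted calls became 1 with library size scaling (miR-369-3p), 6 with DESeq2 and 0 to 3 with a sample left out. The log2 fold change of miR-15b-5p changed sign, to −0.047 with limma and −0.033 without VSD replicates 6 and 7. miR-369-3p, miR-292-5p, miR-199a-3p and miR-300-3p were called under all 23 alternatives that kept the threshold. The medians of the white blood cell, endothelial, neural, Dlk1-Dio3 upstream and Hox lists changed sign with some single samples left out, and those of let-7, miR-15/16 and miR-30 without VSD replicates 2 and 4. The causes were not tested.

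Same-numbered VSD and NC samples correlated in their deviations at −0.21 to 0.24, and 1 of 7 pairs correlated best with its own number, so the numbers were not taken as pairing. With the replicate number as a block there were 13 DE-microRNAs, 10 of them among the 17, and 0 adjusted calls. The block also took the unadjusted p to 0.05 or above for miR-142-3p, miR-484 and miR-1b in myocardium and miR-300-3p and miR-486 in serum. Depth limits the rarer microRNAs, since 245 of the 493 listed passed the filter on low counts.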
